A study of Mus musculus with 9 samples.

Results

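The genes described here are 6 members of the Nodal signalling pathway, the ligand Nodal, the receptor Acvr2b, the co-receptor Tdgf1, the transcription factor Foxh1 and the secreted antagonists Lefty1 and Lefty2. They were found by gene symbol, and all 6 were among the 24132 symbols of the expression table. Lefty1 and Lefty2 were picked because they were low in every library of 1 of the lines, so their difference from that line is described here and was not tested. RNA was measured by RIPiT-seq in mouse embryonic stem cells (ESCs) of a 129/B6 F1 hybrid background, grown without feeder cells and with LIF. RIPiT (RNA:protein immunoprecipitation in tandem) recovers RNA from formaldehyde-fixed cells through the FLAG and then the HA tag of a protein, here WDR5, a subunit shared by the MLL histone methyltransferase complexes. Of the 3 lines, the first was infected with a lentivirus carrying no tagged WDR5 (empty vector), the second with 1 expressing FLAG-HA WDR5 WT, and the third with 1 expressing FLAG-HA WDR5 F266A, a mutant that the study describes as deficient in RNA binding. The empty vector line is therefore a control for untagged background, and endogenous WDR5 was present in all 3 lines. Each line had 1 input library of RNA before purification and 2 IP libraries, 9 libraries in all. The study describes the tagged lines as isolated clones selected for a WDR5 level near the endogenous one, and the F266A construct was shorter at its N terminus than the WT construct, so effects of the mutation, the clone and the construct cannot be told apart.

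Nodal is a TGF-beta family ligand that signals through activin receptors of type I and type II, and needs a co-receptor of the EGF-CFC family, such as Tdgf1 (Cripto), to do so. The receptors phosphorylate SMAD2 and SMAD3, which bind SMAD4 and act on DNA with partners such as FOXH1. Lefty1 and Lefty2 are targets of this pathway that block the ligand and the co-receptor outside the cell, which gives a negative feedback loop. Mouse ESCs produce Nodal and both Lefty proteins, and the same pathway later patterns the epiblast and induces mesendoderm in the embryo.

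The values are RPKM, in which read numbers are divided by transcript length and library depth, so levels can be compared between genes per length. Estimated depth ranged from 13400000 to 50200000 mapped reads per library. The ESC markers fixed for this work (Pou5f1, Nanog, Sox2, Esrrb, Zfp42, Klf4, Dppa5a and Utf1) all lay at or above an RPKM of 1 in every library, and their summed RPKM ranged from 433.1 to 669. The 5 primitive streak markers, genes that Nodal signalling induces in the embryo, lay below an RPKM of 1 in all 9 libraries. The summed RPKM of 7 fibroblast markers was 0.562 to 1.61 and that of 3 primed epiblast markers 1.33 to 5.33. IP replicate 1 of the F266A line stood apart from the other libraries of that line. The summed RPKM of 4 Y-linked genes was 4.43 in the F266A input and 7.21 in IP replicate 2, but 0.0383 in IP replicate 1, and it ranged from 7.42 to 9.50 in the empty vector line and from 0.182 to 0.324 in the WT line. The summed RPKM of 10 primitive endoderm markers was 46.2 in the F266A input and 57.8 in IP replicate 2, against 17.9 in IP replicate 1 and 18.0 to 25.1 in the other 6 libraries. Sparc alone held 28.5, 33.6 and 12.2 RPKM of these F266A sums, in the same order, so the sum mostly follows this gene. In IP replicate 1, Gata4 (0.695), Dab2 (0.916) and Col4a1 (1.03) were still above every library of the other lines, while Lama1 and Sparc were not. Whether all 3 F266A libraries came from 1 clone, and which source the library labelled IP replicate 1 had, was not tested. The main differences from F266A are therefore also given without it.

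Lefty1 and Lefty2 are neighbours on chromosome 1 (mm9, GENCODE M1), at chr1:182865153-182868531 and chr1:182823239-182829234, both on the + strand. Their coding sequences align over 1104 bases with 90 mismatches, an identity of 91.8%. The identity was 77.6% in the first coding exon and 94.3%, 98.0% and 95.8% in the exons that follow, in this order. The stretch below is shown because such differences set how far reads of 50 nt can tell the genes apart. The 60 coding bases that differed most, in the first coding exon, hold 18 mismatches, which are in capitals.
Lefty1, chr1:182865274-182865333: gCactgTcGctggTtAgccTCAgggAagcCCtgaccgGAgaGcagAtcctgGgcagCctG
Lefty2, chr1:182823348-182823407: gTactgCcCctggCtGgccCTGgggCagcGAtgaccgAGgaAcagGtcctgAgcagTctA
Of all windows of 50 bases in the Lefty1 transcript, 17.7% had an identical match elsewhere in the genome and 32.5% had one within 2 mismatches. For Lefty2 these shares were 14.3% and 38.5%, and for Tdgf1 27.4% and 62.8%. Nodal, Foxh1 and Acvr2b had no such window (0%). How reads with several matches were counted is not given in the sources used here, so the values of Lefty1, Lefty2 and Tdgf1 may hold reads of each other or of related copies.

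Nodal, the ligand (chr10:60880720-60888086, + strand), was lowest in the F266A line. The empty vector line had RPKM of 3.45 (input), 4.42 (IP replicate 1) and 4.16 (IP replicate 2). The values were 3.12, 5.91 and 5.08 in the same order in the WT line, and 2.36, 3.32 and 3.96 in the F266A line. The F266A values overlapped those of both other lines, although within each fraction the F266A libraries were the lowest. How many of all genes share this order within fractions was not counted, so it is a description only. Line means were ordered WT (4.70 ± 1.43, SD over 3 libraries), empty vector (4.01 ± 0.498) and F266A (3.21 ± 0.803), and neighbours in this order lay within these spreads. In the fit of line and fraction (input or IP) over all 9 libraries, Nodal was 0.42 higher in WT than in F266A on the log2 (RPKM + 1) scale (SE 0.10, 95% CI 0.19 to 0.66, adjusted p = 0.0319 by limma). This difference passed the threshold, and its size on the RPKM scale was 1.46-fold between the means. Against empty vector, F266A differed by -0.26 (SE 0.10, adjusted p = 0.111), which did not pass, and by -0.21 (adjusted p = 0.199) without F266A IP replicate 1. The WT call was held in 5 of 9 fits that left out 1 library. It was kept without F266A IP replicate 1 (0.37, adjusted p = 0.0495) and lost without empty vector IP replicate 1 (0.0566), the F266A input (0.124), WT IP replicate 1 (0.0818) or WT IP replicate 2 (0.0750). It was also lost with every library scaled to the same median (adjusted p = 0.0520), with the IPs alone (0.126) and without the filter on low values (0.0856).

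Acvr2b, a type II receptor for Nodal and activins (chr9:119311562-119342619, + strand), was at a low and even level. The empty vector line held the narrowest range, with RPKM of 1.98 (input), 2.06 and 2.06 (IPs). The WT line had 1.99, 2.16 and 2.76, and the F266A line had 1.42, 1.66 and 2.17 in the same order. The F266A input and IP replicate 1 were the lowest of the 9 libraries, while IP replicate 2 lay among the others. Line means were ordered WT (2.31 ± 0.406), empty vector (2.03 ± 0.0471) and F266A (1.75 ± 0.384). Neither the difference between WT and F266A (0.27, SE 0.10, adjusted p = 0.128) nor that between F266A and empty vector (-0.15, SE 0.10, adjusted p = 0.343) passed the threshold, nor did they without F266A IP replicate 1 (0.22, adjusted p = 0.202, and -0.10, adjusted p = 0.536).

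Tdgf1, the co-receptor also called Cripto and a marker of undifferentiated ESCs (chr9:110842114-110848662, - strand), was the most abundant of the 6 per length. Input, IP replicate 1 and IP replicate 2 held 112, 169 and 152 RPKM in the empty vector line, 118, 167 and 152 in the WT line and 91.9, 121 and 142 in the F266A line. Within each fraction the F266A libraries were the lowest, an order whose share over all genes was not counted. Line means were 146 ± 24.9 in WT, 144 ± 29.1 in empty vector and 118 ± 25.1 in F266A, and all neighbours in this order overlapped. Tdgf1 differed by 0.31 (SE 0.09, adjusted p = 0.0675) between WT and F266A and by -0.28 (SE 0.09, adjusted p = 0.0626) between F266A and empty vector, and neither passed the threshold. Without F266A IP replicate 1 they were 0.25 (adjusted p = 0.0965) and -0.23 (adjusted p = 0.107).

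**Figure D1:**
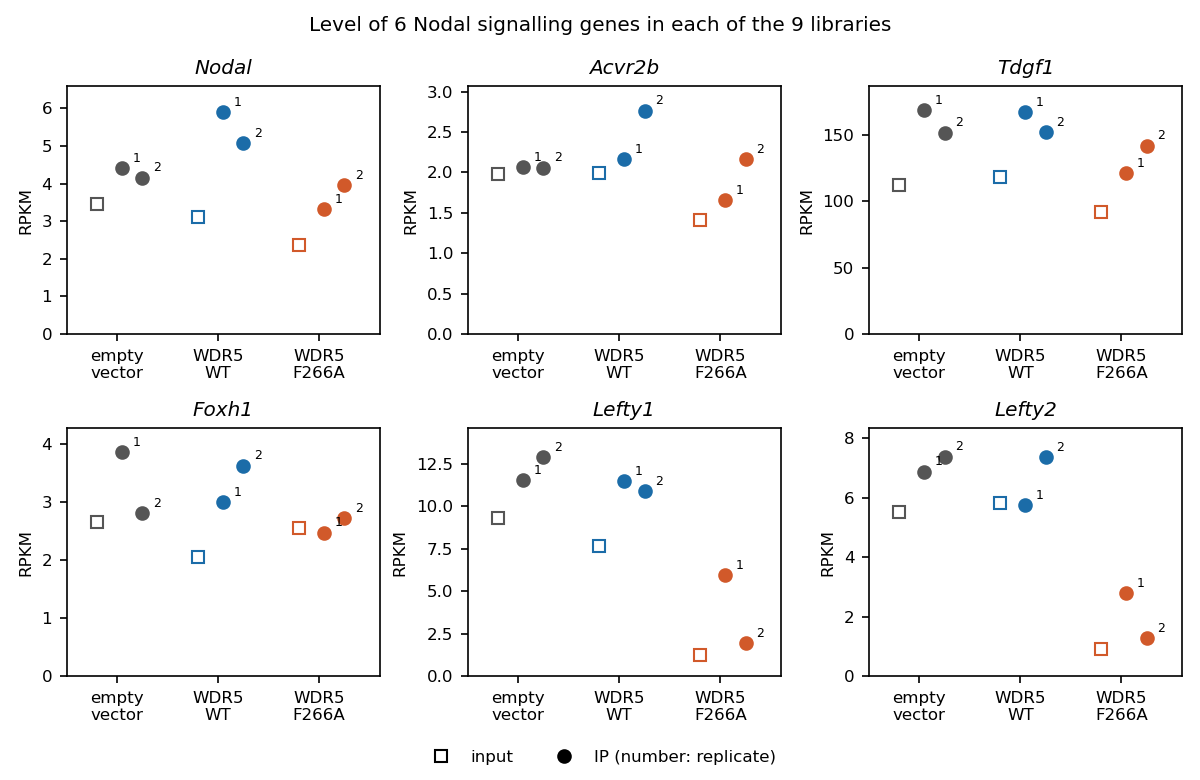
RPKM (linear axes from 0) of the 6 genes in each library of the 3 lines, with the input as an open square and the IPs as filled circles numbered by replicate. The 3 F266A libraries lie below all others for Lefty1 (highest 5.92 against a lowest of 7.66 elsewhere) and Lefty2 (2.78 against 5.53), and overlap with them for the other 4 genes.

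Foxh1, the transcription factor that recruits activated SMADs to Nodal target genes (chr15:76498714-76500378, - strand), passed in no comparison of lines. Input and IPs held 2.66, 3.85 and 2.81 RPKM in the empty vector line, 2.04, 2.99 and 3.62 in the WT line, and 2.54, 2.47 and 2.72 in the F266A line. The lowest value was in the WT input and the highest in an empty vector IP. Both F266A IPs lay below the 4 other IPs, while the F266A input lay between the other inputs. Line means were ordered empty vector (3.11 ± 0.650), WT (2.89 ± 0.795) and F266A (2.58 ± 0.125), with neighbours within these spreads. Foxh1 differed by 0.10 (SE 0.13, adjusted p = 0.681) between WT and F266A and by -0.19 (SE 0.13, adjusted p = 0.333) between F266A and empty vector, or by 0.03 (adjusted p = 0.905) and -0.12 (adjusted p = 0.551) without F266A IP replicate 1. Its 95% interval of -0.18 to 0.38 for WT against F266A still allows a difference of the size seen for Acvr2b.

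Lefty1, a secreted inhibitor of Nodal, reached 9.28 (input), 11.5 and 12.9 RPKM (IPs) in the empty vector line. The WT line was close to it, with 7.66, 11.5 and 10.9. In F266A cells the values were 1.25 (input), 5.92 (IP replicate 1) and 1.96 (IP replicate 2). All 3 F266A libraries were below the other 6, and the libraries of the other lines overlapped. The mean over the empty vector libraries was 3.69 times and that over the WT libraries 3.29 times the F266A mean. Without F266A IP replicate 1 these folds were 7.00 and 6.24, and between the inputs alone they were 7.41 and 6.11. The RPKM in the F266A input and IP replicate 2 corresponded to about 83 and 84 reads, with a counting error of about 11.0% and 10.9%.

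Lefty2, the second inhibitor of the pair, followed the same order. Input and IPs held 5.53, 6.87 and 7.37 RPKM in the empty vector line and 5.83, 5.73 and 7.36 in the WT line. The F266A values were 0.906 (input), 2.78 (IP replicate 1) and 1.26 (IP replicate 2). Again all F266A libraries lay below the other 6, with IP replicate 1 the nearest to them. The empty vector mean was 3.99 times and the WT mean 3.82 times the F266A mean, and 6.08 and 5.81 times without IP replicate 1. On the log2 (RPKM + 1) scale, which understates changes of low values, F266A differed from empty vector by -1.76 for Lefty1 and by -1.57 for Lefty2 (-2.16 and -1.82 without IP replicate 1). These values chose the pair and carry no test.

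Separation of the F266A libraries from all others in the low direction was found for 665 of the 9787 tested genes (6.79%), those that reached an RPKM of 1 in 2 or more libraries, and in the high direction for 260 (2.66%). Of the 6 genes here, Lefty1 and Lefty2 were separated and the other 4 were not, as the rule fixes for the pair. Ranked from the lowest ratio of the F266A mean to the mean of the other lines, Lefty2 was at place 27 and Lefty1 at place 57 of 9787. Nodal was at place 1246, Acvr2b at 1916, Tdgf1 at 2045 and Foxh1 at 2727. The places of the pair restate how it was chosen. In bulk RNA, fewer cells that express a gene and less RNA per cell cannot be told apart.

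The ratio of Lefty1 to Lefty2 RPKM lay between 1.31 and 2.13 in the 9 libraries. It was 1.68, 1.68 and 1.75 in the input and IPs of the empty vector line, 1.31, 2.0 and 1.48 in the WT line and 1.38, 2.13 and 1.55 in the F266A line. The F266A values lay among those of the other lines except for IP replicate 1, which was the highest. Lefty1 was therefore above Lefty2 per length in every library, and the pair was low together in the F266A line.

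Some markers of the cell state also differed between the lines. Of 8 ESC markers, 4 were lower in F266A than in empty vector (Pou5f1 -0.71, Nanog -0.53, Klf4 -0.48 and Esrrb -0.44, adjusted p from 0.00501 to 0.0132), against 11.3% of all tested genes lower in this comparison. Without F266A IP replicate 1 these differences were -0.54, -0.58, -0.45 and -0.42, and all 4 passed. Dppa5a (-0.25), Sox2 (-0.29), Zfp42 (-0.12) and Utf1 (0.16) did not pass. Against WT, 1 of the 8 passed, beside 7.25% of all tested genes that were higher in WT than in F266A. This was Nanog, higher in WT (0.65, adjusted p = 0.00364, and 0.70 without IP replicate 1). Klf4 had mean RPKM of 16.3 in empty vector, 12.1 in WT and 11.4 in F266A. Its WT mean thus lay near F266A, while the WT means of Lefty1 and Lefty2 lay near empty vector. The pair was chosen as low in F266A, so the distance of its WT means from F266A restates that choice. Of the 10 primitive endoderm markers 5 passed the filter on low values, and 3 of these, Gata4, Dab2 and Col4a1, reached an RPKM of 1 in F266A libraries alone, so that they had to differ and are given as values. GATA4 is a transcription factor of extraembryonic endoderm, DAB2 an endocytic adaptor and Col4a1 encodes a basement membrane collagen. In F266A, Gata4 was at 1.90 RPKM (input), 0.695 (IP replicate 1) and 2.69 (IP replicate 2), Dab2 at 3.02, 0.916 and 5.43 and Col4a1 at 5.40, 1.03 and 6.98. The highest values in the other lines were 0.171, 0.261 and 0.731. The 2 markers that reached this level in every line, Lama1 (0.39, adjusted p = 0.264) and Sparc (0.30, adjusted p = 0.529), did not pass for F266A against empty vector. In the same order of F266A libraries, Lama1 was at 5.54, 2.67 and 6.59 RPKM and Sparc at 28.5, 12.2 and 33.6. In the other lines they reached at most 3.56 and 20.9, which the F266A input and IP replicate 2 exceeded and IP replicate 1 did not. In the order of F266A input, IP replicate 1 and IP replicate 2, Lefty1 was low, less low and low, while Gata4 and the summed endoderm markers were high, lower and high. The part of the endoderm markers and of the Y-linked genes in the Lefty values was not tested.

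**Figure D2:**
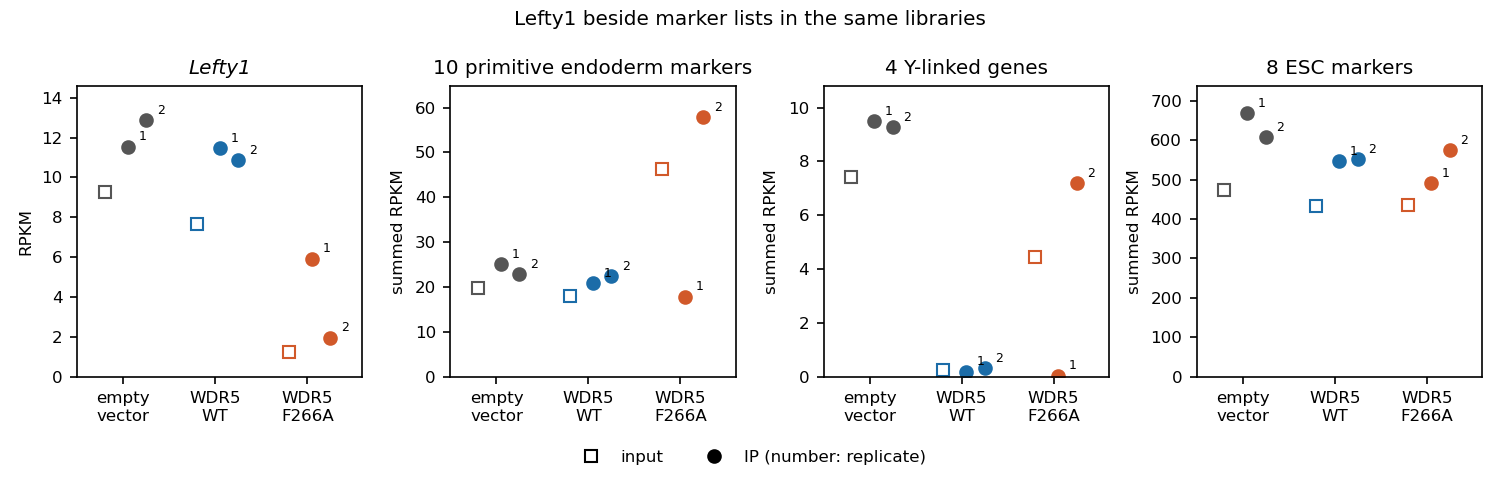
RPKM of Lefty1 and summed RPKM of 3 marker lists in each library (linear axes from 0), with inputs as open squares and IPs as numbered filled circles. In the F266A line, IP replicate 1 has the highest Lefty1 value (5.92), the lowest endoderm sum (17.9 against 46.2 and 57.8) and almost no Y-linked RNA (0.0383). Sparc holds the largest part of the endoderm sum in this line (12.2 RPKM in IP replicate 1).

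Genes with the most similar profile were taken by Pearson's r of log2 (RPKM + 1) over the 9 libraries among 1771 genes whose values spanned at least 1. The 5 most like Lefty1 were Prdm1, Trh, Sept9, Tfap2c and Slc7a3 (r from 0.98 to 0.99), and Lefty2 was at place 10 (r = 0.98). Prdm1 and Tfap2c encode transcription factors of the germ line, Trh encodes a neuropeptide precursor, Sept9 a septin and Slc7a3 a cationic amino acid transporter. The 5 most like Lefty2 were Klhl13, Sept9, Brpf3, Prdm1 and Pdgfc (r = 0.99 for each), with Lefty1 at place 13. Klhl13, a ubiquitin ligase adaptor, had a highest RPKM of 7.54 in F266A and a lowest of 19.2 in the other lines. This separation follows from the search for likeness to Lefty2, and 6.79% of all tested genes were separated in this direction. Nodal had an r of 0.66 with Lefty1 and of 0.60 with Lefty2, and was at places 738 and 733 of the candidates. Its own nearest genes were 0610010K14Rik, Cox7a2l, Uqcr10, 3110001D03Rik and Ngfr (r from 0.94 to 0.96), of which Cox7a2l and Uqcr10 belong to the respiratory chain, and its r with Tdgf1, outside the span required, was 0.92. These correlations over 9 libraries of 3 lines share the difference between lines and between fractions and are descriptive.

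Between lines, the test over all genes called 1635 of 9787 genes (16.7%) for F266A against empty vector, 976 (9.97%) for WT against F266A and 17 (0.174%) for WT against empty vector. The labels name no separate cultures, so these p-values measure only the spread between libraries. Of the 4 members not chosen on F266A, 1 of 4 passed for WT against F266A, higher in WT as were 7.25% of all tested genes, and 0 of 4 passed for F266A against empty vector. All 4 had a lower fitted level in F266A than in each other line, an order whose share over all genes was not counted, so it is a description only. Their median difference from empty vector was -0.23, against -0.04 over all tested genes. Without F266A IP replicate 1 the counts over all genes rose to 2531, 1800 and 61.

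WT and empty vector were the comparison that did not choose the Lefty genes, and 0 of 6 members passed in it by limma, with 829 of 9787 genes at an unadjusted p under 0.05 over all genes and none of the members among them. Lefty1 differed by -0.16 (95% CI -0.73 to 0.42, adjusted p = 0.919) and Lefty2 by -0.05 (-0.45 to 0.34, adjusted p = 0.967). Nodal differed by 0.16 (95% CI -0.07 to 0.39), Acvr2b by 0.12 (-0.11 to 0.35), Tdgf1 by 0.02 (-0.18 to 0.23) and Foxh1 by -0.09 (-0.37 to 0.19).

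**Figure D3:**
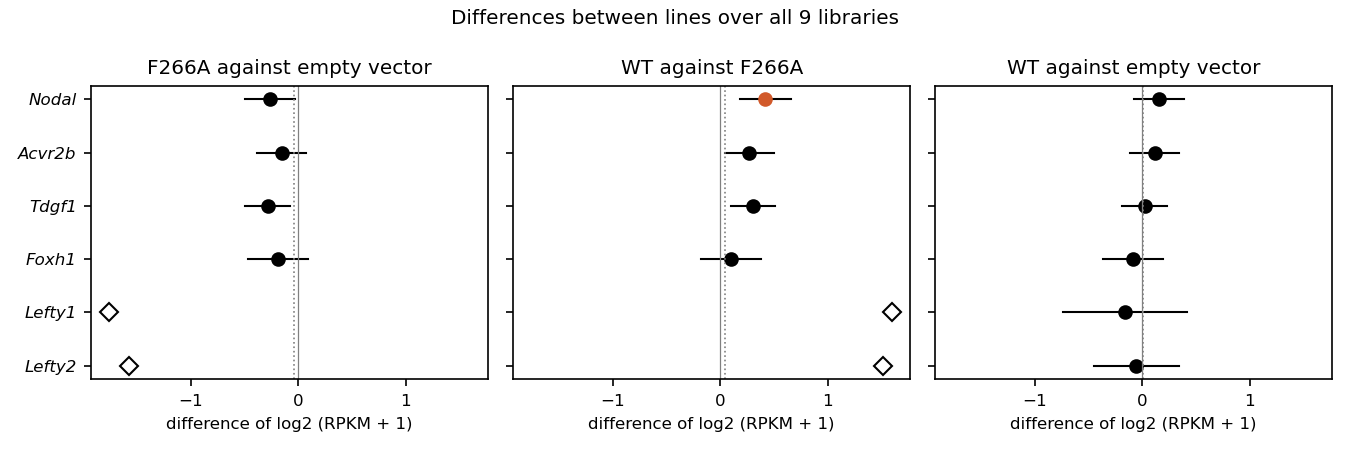
Differences between lines on the log2 (RPKM + 1) scale, fitted over all 9 libraries, with 95% confidence intervals as bars, the median of all 9787 tested genes as a dotted line, and a call in orange. Open diamonds are Lefty1 and Lefty2 against F266A, which chose the genes and have no test. Nodal is the only call, 0.42 higher in WT than in F266A.

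The wider pathway was described by 30 genes chosen by their role, of which 18 passed the filter on low values. In F266A against empty vector 3 of 18 were higher and 1 was lower, beside 5.45% and 11.3% of all tested genes, and the median difference of the list was 0.11 against -0.04 over all genes. Among the ligands, Inhbb, the beta B subunit of activins and inhibins, was higher in F266A than in empty vector (0.57, SE 0.14, adjusted p = 0.0182) and lower in WT than in F266A (-0.60, SE 0.14, adjusted p = 0.0209). F266A input and IPs held 1.85, 1.42 and 2.39 RPKM of it and the other 6 libraries 0.692 to 1.10. The groups thus did not overlap, as in this direction for 260 of 9787 tested genes (2.66%). Gdf3, a ligand related to Nodal, had values of 2.89, 8.04 and 4.77 in the F266A input and IPs, with IP replicate 1 the highest of the line, and its difference from empty vector was -0.47 (adjusted p = 0.0639). Of the 4 ligands listed 2 lay below an RPKM of 1 in all 9 libraries, as did 2 of 3 secreted antagonists.

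Of 4 receptors and co-receptors 2 were tested, of 3 SMAD effectors 2, and both convertases, the enzymes that cleave the Nodal precursor, and none of these passed in either comparison with F266A. Of 8 intracellular negative regulators, all measured, Smad7, an inhibitory SMAD that blocks the receptors, was 0.36 higher in F266A than in empty vector (adjusted p = 0.0322). Pmepa1, a membrane protein that sequesters receptor-regulated SMADs, was 0.33 higher (adjusted p = 0.0481). Tgif2, a SMAD corepressor, was -0.27 in F266A against empty vector (adjusted p = 0.0406) and 0.36 higher in WT than in F266A (adjusted p = 0.0162). Smad7 differed by 0.33 between WT and empty vector (unadjusted p = 0.00707, adjusted p = 0.337), and WT and F266A differed by -0.03, with mean RPKM of 4.52 in empty vector, 5.91 in WT and 6.07 in F266A. For F266A against empty vector, the call held in 1 of 9 fits without 1 library for Pmepa1, in 3 for Smad7, in 3 for Tgif2 and in 5 for Inhbb. For WT against F266A it held in 5 of 9 for Tgif2 and in 5 of 9 for Inhbb. Without F266A IP replicate 1 all 4 genes passed against empty vector, with adjusted p from 0.00339 for Inhbb to 0.0337 for Tgif2. Among partner and target transcription factors, 5 of 6 lay below an RPKM of 1 in all 9 libraries.

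**Figure D4:**
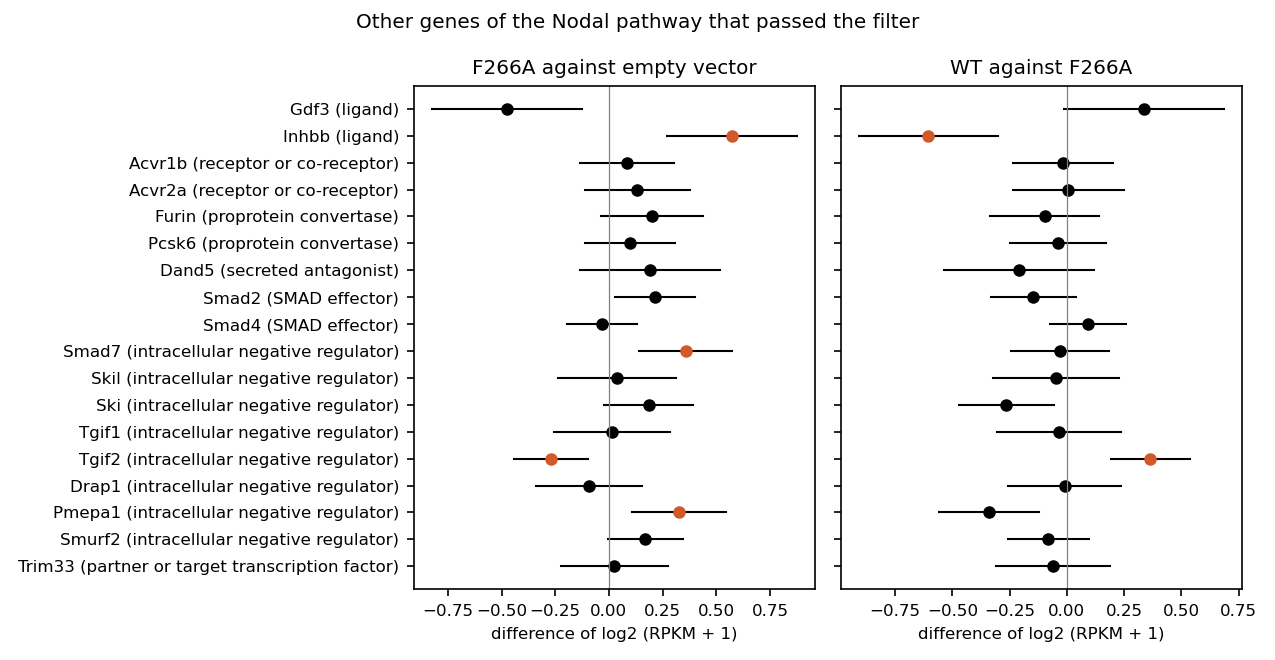
Differences on the log2 (RPKM + 1) scale for the 18 pathway genes that passed the filter, ordered by role, with 95% confidence intervals as bars and calls in orange. Inhbb and Tgif2 were called in both comparisons with F266A and in opposite directions, and Smad7 and Pmepa1 in 1 of them.

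The BMP branch of the family, listed for comparison, held 3 tested genes of 5, and 2 of them were higher in F266A than in empty vector, as were 5.45% of all tested genes. Bmp4, a ligand, was 1.25 higher (SE 0.19, adjusted p = 0.00207) and Id1, a target of BMP signalling that inhibits basic helix-loop-helix factors, 0.96 higher (SE 0.16, adjusted p = 0.00387), or 1.51 and 0.95 without F266A IP replicate 1. Id3, a related gene, differed by 0.05 (adjusted p = 0.904). Bmp4 reached 4.17, 5.77 and 11.4 RPKM across F266A input and IPs, against 1.14, 2.74 and 3.02 in empty vector and 1.08, 4.15 and 3.66 in WT. Both calls against empty vector passed in 9 of 9 fits that left out 1 library. Bmp4, 1 of the 3, was also lower in WT than in F266A (-1.04, adjusted p = 0.00826), as were 2.72% of all tested genes, a call that held in 7 of 9 such fits. Id1 did not pass there (-0.47, adjusted p = 0.0966), and differed by 0.48 between WT and empty vector (adjusted p = 0.405).

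RNA of most genes was higher in the IPs than in the inputs. The fraction comparison called 6247 of 9787 genes higher in the IPs (63.8%) and 50 lower (0.511%), 64.3% in all, with a median difference of 0.30 over all genes, and changes are read relative to that shift. Of the members, 3 of 6 were higher in the IPs, Tdgf1 (0.48, SE 0.08, adjusted p = 0.00117), Nodal (0.45, SE 0.09, adjusted p = 0.00244) and Lefty1 (0.62, SE 0.22, adjusted p = 0.0335). Lefty2 (0.36, adjusted p = 0.0651), Foxh1 (0.25, adjusted p = 0.0647) and Acvr2b (0.17, adjusted p = 0.113) did not pass, and the median of the 6 was 0.41. With libraries scaled to the same median, 290 genes were higher and 360 lower, 0 of 6 members passed, and the values of Foxh1 (-0.06) and Acvr2b (-0.11) turned negative. The Lefty1 difference was 0.42 (adjusted p = 0.00113) without F266A IP replicate 1, and its call was lost without empty vector IP replicate 2 (0.0543), the F266A input (0.212), the WT input (0.0735) or WT IP replicate 1 (0.0567). The Lefty2 difference was 0.23 without F266A IP replicate 1 and passed there (adjusted p = 0.0362). In the pathway list 10 of 18 genes were higher in the IPs and 0 lower (0 and 1 under median scaling), led by Gdf3 (0.75, adjusted p = 0.00157), Drap1 (0.60, 0.000971), a corepressor that binds FOXH1, and the SMAD corepressor Tgif1 (0.57, 0.00165).

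The study's question was which RNAs were recovered with WDR5 WT and neither with F266A nor with empty vector. It used an enrichment score, the change in log2 RPKM of an IP against its input, and named no pseudocount. Here the score was log2 (RPKM + 1) of an IP minus that of the input of its line. The rule asked that both WT scores exceed 0 and every one of the 4 other scores. This held for 518 of 9787 tested genes (5.29%) and for 0 of the 6 members. Nodal came nearest, with WT scores of 0.75 and 0.56, F266A scores of 0.36 and 0.56 and empty vector scores of 0.28 and 0.21. The margin of its lower WT score over the highest control score was -0.00011. It met the rule when the mean of the 3 inputs was used for every line, under median scaling, and without F266A IP replicate 2 or WT IP replicate 2. Foxh1 had WT scores of 0.39 and 0.60, empty vector scores of 0.41 and 0.06 and F266A scores of -0.03 and 0.07. It met the rule with a pseudocount of 0.1, and without empty vector IP replicate 1 or WT IP replicate 1.

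The Lefty scores were set apart by a single library. Lefty1 scored 0.29 and 0.43 in empty vector, 0.53 and 0.46 in WT and 1.62 and 0.39 in F266A, with the high value in IP replicate 1. Lefty2 scored 0.27 and 0.36 in empty vector, -0.02 and 0.29 in WT and 0.99 and 0.25 in F266A, with the high value in the same library. Both F266A scores of a gene were taken against the same input, at 1.25 RPKM for Lefty1 and 0.906 for Lefty2. The median score over all tested genes was 0.39 and 0.35 in F266A against 0.26 to 0.27 in the other IPs. The part of the input in these scores was not tested. Without F266A IP replicate 1, Lefty1 met the rule by a margin of 0.02, where 1034 genes met it in all, and Lefty2 did not. Tdgf1 scored 0.59 and 0.44 in empty vector, 0.49 and 0.36 in WT and 0.40 and 0.62 in F266A, and Acvr2b 0.04 and 0.04, 0.08 and 0.33, and 0.14 and 0.39 in the same order. For both genes the F266A line held the highest score.

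**Figure D5:**
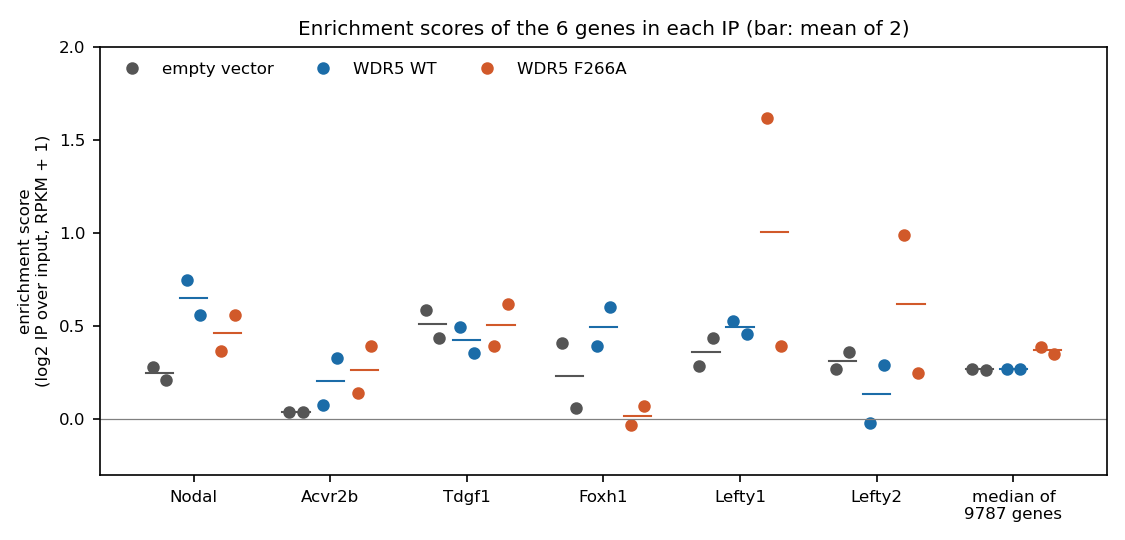
Enrichment score of each gene in each IP, as log2 (RPKM + 1) of the IP minus that of the input of its line, with bars at the mean of the 2 IPs of a line and the median score of 9787 genes at the right. Both WT scores of Nodal lie at or above the highest control score to the second decimal (0.56), and the high F266A points of Lefty1 (1.62) and Lefty2 (0.99) are IP replicate 1.

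Tested with limma over all genes, 0 of 9787 genes passed for the score in WT against empty vector (0% called, 173 at an unadjusted p under 0.05) and 0 for WT against F266A (0% called, 259 unadjusted). The difference of Nodal was 0.41 against empty vector (95% CI -0.09 to 0.90, unadjusted p = 0.0947) and 0.19 against F266A (-0.30 to 0.68). That of Foxh1 was 0.26 (-0.32 to 0.84) and 0.48 (-0.10 to 1.06). Lefty1 (0.13, 95% CI -1.16 to 1.43) and Lefty2 (-0.18, -1.08 to 0.72) had the widest intervals against empty vector. The fit pools the spread of the IPs over all lines, also those outside a comparison. The SD of the 2 scores of Lefty1 was 0.87 in F266A, 0.10 in empty vector and 0.05 in WT. For Lefty2 it was 0.52, 0.06 and 0.22 in the same order. The spread of the F266A IPs thus widened these intervals, and differences within them were not detectable.

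Promoters (250 bases before to 50 after the start, RefSeq on GRCm38.p6) were at hand for Nodal, Tdgf1 and Acvr2b. A FOXH1 motif (AATNNACA on either strand) was found in the Tdgf1 promoter at 2 places, and a SMAD motif (CAGAC on either strand) in Tdgf1 and Acvr2b at 1 place each. These motifs occur in 12.3% and 49.7% of 27025 promoters of the same length, and a match is a description of the letters only. The Nodal promoter held neither.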

How the data were processed

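RPKM per RefSeq gene symbol were deposited by the authors, who mapped reads of 50 nt to mm9 with TopHat 1.1.3 and computed RPKM with their own script. RPKM are not counts, so no count test was used; read numbers given are estimates from RPKM, GENCODE M1 exon length and the estimated depth, and cover counting error only, since PCR copies are not independent molecules. Groups came from the sample titles. Values were analysed as log2 (RPKM + 1) with limma 3.58.1 in R 4.3.3 (line plus fraction over 9 libraries; line by fraction for enrichment scores), for genes that reached an RPKM of 1 in 2 or more libraries, and Benjamini-Hochberg adjustment over all 9787. The threshold was an adjusted p of 0.05. The procedure was run on simulated data with independent noise for each library. Such data cannot show how differences between clones or cultures affect the line calls. Windows of 50 bases were matched to mm9 with blastn 2.17.0; other steps used Python 3.11.15, pandas 2.3.3 and numpy 2.4.6.

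The members, gene lists and rules were chosen with earlier results of these data known. Named pathway genes were those of mean RPKM 1 or more that passed, up to 10 by size of difference, and the 5 genes most like Lefty1, Lefty2 and Nodal. Alternatives were a pseudocount of 0.1, no filter, median scaling, a replicate block, the IPs alone, a common input and leaving out each library. Differences in the share of reads on genes remain in RPKM. Fixation, tandem purification and amplification of the RNA precede these values.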

Additional observations from a re-analysis of the deposited data

How the results depend on the processing

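Over all other settings, 56 summary counts stayed within 1.5 times the value reported, 20 were lower and 10 higher. Of the values of named genes, 699 kept their direction, the tested ones also their side of the threshold. Those without a test (the Lefty differences from F266A and the margins in the enrichment rule) counted among these if they stayed within the spread of the IPs. A further 93 lost the threshold, 6 passed it, 13 without a test moved by more than that spread and 24 changed sign. Leaving out 1 library at a time gave 804 to 2531 genes for F266A against empty vector, 293 to 1800 for WT against F266A, 0 to 61 for WT against empty vector and 3835 to 6595 for IP against input. The scores gave 0 for WT against empty vector and 0 to 2 for WT against F266A, and 596 to 1484 genes met the enrichment rule. The highest line counts came without F266A IP replicate 1, and the lowest without empty vector IP replicate 1 (804 and 0) or the WT input (293). F266A against empty vector also fell by more than 1.5 times without the empty vector input (859), empty vector IP replicate 2 (916), the F266A input (830) or F266A IP replicate 2 (1006), WT against F266A without the F266A input (360), F266A IP replicate 2 (623) or WT IP replicate 2 (575), and IP against input without the F266A input (3835). Scores could not be fitted where the input of a line they need was left out. The IPs alone gave 447, 114 and 0 line calls. Without the filter 45 and 33 genes passed for the scores against empty vector and F266A, where more genes of low RPKM were tested. Median scaling left 650 fraction calls and turned the fraction values of Foxh1 (-0.056) and Acvr2b (-0.11) negative and the score differences between WT and F266A of Tdgf1 (0.058) and Acvr2b (0.0037) positive. The IPs alone turned Tdgf1 in WT against empty vector (-0.0056). The margin in the enrichment rule turned positive for Foxh1 with a pseudocount of 0.1 (0.0085) and for Nodal with a common input (0.17) and median scaling (0.067). Leaving out 1 library moved the margin between -0.00011 and 0.20 for Nodal, -0.017 and 0.32 for Foxh1 and -1.16 and 0.024 for Lefty1. It moved the WT against empty vector difference between -0.012 and 0.071 for Tdgf1, -0.19 and 0.034 for Foxh1 and -0.16 and 0.071 for Lefty2, and that of WT against F266A between -0.0039 and 0.22 for Foxh1. The score difference between WT and F266A moved between -1.13 and 0.10 for Lefty1, -0.20 and 0.029 for Tdgf1 and -0.19 and 0.066 for Acvr2b. The cause was not tested.

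IP replicates of the same number deviated together with r of 0.112 for empty vector and WT, 0.0116 for empty vector and F266A and 0.258 for WT and F266A, so the numbers were not taken as pairs. A fit with the replicate number as a block gave 1908, 1167 and 17 line calls, 6550 fraction calls and 0 and 0 score calls. Of the named genes called, it lost Pmepa1 in F266A against empty vector (adjusted p = 0.0506). Depth limits the scores of Foxh1 and Acvr2b most, with about 48 to 174 reads per library.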
